A study of Homo sapiens with 20 samples.

Results

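Described here are 34 genes of keratin filaments, desmosomes, laminin, the cornified envelope and the epithelial programme, chosen by symbol and all found among the 54261 rows of the gene count table. They were measured by RNA-seq in TPC-1, an established line from a human papillary thyroid carcinoma. The coculture group held 6 libraries of TPC-1 cells kept for 48 h with PMN-MDSCs (polymorphonuclear myeloid-derived suppressor cells, which dampen T cell responses). The control group held 4 libraries of untreated TPC-1 cells, also labelled 48 h. The sources used here do not say how the cells were cultured together, where the PMN-MDSCs came from or whether they were taken off before RNA was made. Since no label ties libraries to separate cultures, the p-values reflect only the spread between these libraries, which may be technical.

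Keratins are intermediate filament proteins that assemble as obligate pairs of a type I and a type II chain. Simple epithelia such as the thyroid follicle use KRT8 with KRT18, and often KRT7 and KRT19, whereas basal cells of stratified epithelia use KRT5 with KRT14, KRT15 or KRT17. Desmosomes anchor these filaments at cell contacts: cadherins bridge the cells, armadillo proteins (plakoglobin and plakophilins) bind the cadherin tails, and desmoplakin ties the complex to keratin. Laminin-332, a trimer of an alpha, a beta and a gamma chain, holds epithelia to their basement membrane, and the cornified envelope is the cross-linked protein shell of epidermal cells.

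Libraries held 40237801 to 48197608 counts, so that the floor used here, 3 counts in a library, equals 0.0632 to 0.0758 CPM (counts scaled to a common library total by TMM). On the first principal component of all tested genes, with 39.3% of the variance, coculture 1 scored -66.1 and coculture 2 -60.6, whereas the remaining 8 libraries scored 0.908 to 31.8, so the results below are also given without these 2 libraries. Of 14 leukocyte marker genes, the summed level was 32.6 to 55.3 CPM in coculture and 7.27 to 8.30 CPM in controls. LYZ was at 13.9 ± 2.17 CPM in coculture and 0.0860 ± 0.0783 CPM in controls (SD, n = 6 and 4). A count filter by group left 7 of the 14 for testing, among them LYZ, ITGAM and S100A9. EdgeR called all 7 higher (adjusted p under 0.05), where it called 1.14% of all genes tested higher. CD53 and TYROBP, with 0 counts over the controls, S100A9 with 1, ITGAM with 3 and LYZ with 15 passed the filter only through coculture. The count of 7 called higher was thus largely fixed beforehand. PTPRC averaged 0.276 CPM in coculture and 0.00565 CPM in controls, CSF3R 0.0435 CPM in coculture with 0 counts in controls, and the neutrophil genes FCGR3B and ELANE were at 0 in all 10 libraries. Coculture 1 also held 147 CPM of 7 fibroblast genes in sum, against 3.30 to 9.64 CPM in the other 5 coculture libraries and 3.35 to 7.14 CPM in controls. Of 6 thyroid genes the summed level, nearly all of it the thyroid factor PAX8, was 516 to 781 CPM in coculture and 507 to 533 CPM in controls, while TSHR and NKX2-1 had at most 1 count over all 10 libraries each.

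Levels in the list ran from strongly expressed to silent, with genes in between. A mean of at least 1 CPM in either group was reached by 16 of the 34 genes, and 15 of them reached 5 CPM. On the level per length (TPM, from the transcript lengths in the deposited table), TGM2, LAMB3, KRT18 and KRT8 stood highest. LAMB3 averaged 1137 ± 133 TPM in coculture and 1090 ± 153 TPM in controls, and TGM2 836 ± 202 TPM in coculture and 1142 ± 66.2 TPM in controls. At the other end, KRT5, IVL, GRHL2 and OVOL1 had 0 counts in every library. A count filter by group left 21 genes for testing, and the other 13 had at most 17 counts in any library.

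**Figure D1:**
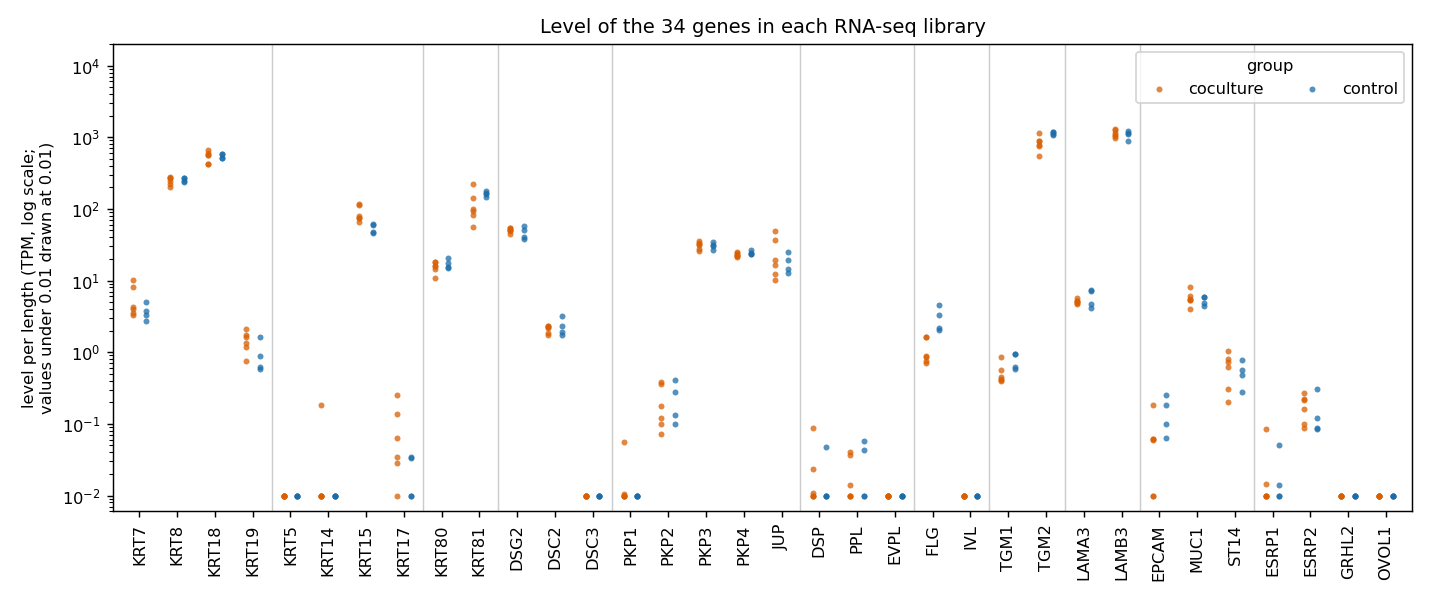
Level per length (TPM, log axis) of each of the 34 genes in the 6 coculture libraries (orange, left of each gene's tick) and the 4 control libraries (blue, right), 1 point per library, with grey lines between functional groups. TGM2 and LAMB3 lie near the top at mean levels of 836 to 1142 TPM, and KRT5, IVL, GRHL2 and OVOL1 lie at 0, drawn at the lower edge.

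Of the 21 genes tested with edgeR over all 15629 genes, 0 rose and 1 fell at an adjusted p under 0.05, where 1.14% of all genes tested were called higher and 0.186% lower. At an unadjusted p under 0.05, 1 gene was higher (KRT15) and 2 were lower (FLG and TGM2), where 6.07% of all genes tested were higher and 3.58% lower. DESeq2 called 1 higher (KRT15) and 1 lower (FLG), where it called 2.13% of all genes higher and 0.678% lower. Limma-voom called 0 higher and 1 lower (FLG), where it called 0.992% and 0.173%. The median log2 fold change, coculture over control, was 0.025 for the 21 genes and 0.008 for all genes tested, with 11 of the 21 positive and 10 negative. Groups did not overlap for 2 of the 21 genes, FLG and KRT15, where 3.62% of all genes tested had groups without overlap. The leukocyte marker sum, 32.6 to 55.3 CPM in coculture and 7.27 to 8.30 CPM in controls, moved with the groups, and its part in the fold changes was not tested. In these bulk samples, fewer cells of a type and less RNA per cell cannot be told apart.

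The 1 gene that fell was FLG, which encodes filaggrin, the epidermal protein that bundles keratin filaments under the cornified envelope. FLG was at 9.36, 5.31, 4.75, 4.02, 9.30 and 4.29 CPM in coculture 1 to 6, against 17.5, 25.2, 12.4 and 12.1 CPM in control 1 to 4. Each coculture library lay below each control library, and coculture 1 and 5 were the highest of their group. The log2 fold change was -1.45 ± 0.29 (SE), a level 0.367 times that of controls, with an edgeR adjusted p of 0.0286. The call was lost on leaving out coculture 2, 3, 4 or 6 or control 1 or 2 (edgeR adjusted p from 0.0534 to 0.108) and with no count filter (0.0634), while the log2 fold change stayed between -1.60 and -1.18. Per length FLG was a weak transcript, at 1.07 ± 0.439 TPM in coculture and 3.05 ± 1.21 TPM in controls.

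FLG lies on the minus strand of chromosome 1 from 152302175 to 152325203 in the deposited table (build GRCh38.p10, per the submitters' processing notes), and it overlaps the antisense gene FLG-AS1. The strand setting of the counting is not stated, so reads of the 2 genes cannot be told apart where they overlap. FLG-AS1 was at 6.65, 4.95, 9.16, 7.80, 8.72 and 9.58 CPM in coculture 1 to 6 and at 12.3, 11.1, 11.04 and 10.7 CPM in control 1 to 4. Its groups did not overlap either, but its log2 fold change of -0.53 was not called (edgeR adjusted p = 0.254). Of the other genes that build the cornified envelope, IVL, the involucrin precursor of the envelope, had 0 counts, and FLG2, a filaggrin relative, had 11 counts over the coculture libraries and 1 over the controls. HRNR, which encodes the related hornerin, had 27 counts in coculture and 29 in controls, and LOR, which encodes loricrin, had 0. Of 23 further genes of the cornified envelope, 4 could be tested and 0 were called by edgeR, with 3 positive log2 fold changes (SBSN, SCEL and CNFN) and 1 negative (TGM5). SBSN, which encodes suprabasin, was at 2.99 ± 1.85 CPM in coculture and 0.940 ± 0.233 CPM in controls. Its log2 fold change of 1.66 ± 0.45, opposite in sign to that of FLG, was not called by edgeR (adjusted p = 0.137) but was by DESeq2 (adjusted p = 0.00674). SCEL, which encodes sciellin, was at 1.17 ± 0.401 CPM in coculture and 0.877 ± 0.504 CPM in controls. KRT10, a keratin that filaggrin bundles in the epidermis, was at 30.7 ± 4.26 CPM in coculture and 27.6 ± 4.10 CPM in controls and was not called.

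The promoter of FLG is shown because FLG is the gene that passed the test, and those of LAMA3 and LAMB3 because both encode chains of laminin-332 and their levels lie far apart. They run from 250 bases before to 50 bases after an annotated start of transcription, 5′ to 3′ on the gene's own strand, and come from RefSeq (GRCh38.p14), whose promoter table matched 14 of the 34 genes with 20 promoters. Capitals mark matches on either strand to TGANTCA, the site of the transcription factor AP-1. The FLG window is chr1:152325190-152325489, minus strand, the LAMA3 window chr18:23872770-23873069, plus strand, and the LAMB3 window chr1:209652376-209652675, minus strand. The LAMA3 start shown is an internal one, since the deposited LAMA3 gene begins at 23689443 on the same strand, and the LAMB3 start shown also lies inside the deposited gene, which begins on its strand at 209653077.
FLG: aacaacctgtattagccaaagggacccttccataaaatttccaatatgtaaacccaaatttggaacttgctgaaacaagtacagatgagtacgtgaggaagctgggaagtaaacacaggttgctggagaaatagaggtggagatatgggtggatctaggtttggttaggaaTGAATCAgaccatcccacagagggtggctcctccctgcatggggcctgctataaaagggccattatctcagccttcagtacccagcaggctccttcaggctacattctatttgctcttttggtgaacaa
LAMA3: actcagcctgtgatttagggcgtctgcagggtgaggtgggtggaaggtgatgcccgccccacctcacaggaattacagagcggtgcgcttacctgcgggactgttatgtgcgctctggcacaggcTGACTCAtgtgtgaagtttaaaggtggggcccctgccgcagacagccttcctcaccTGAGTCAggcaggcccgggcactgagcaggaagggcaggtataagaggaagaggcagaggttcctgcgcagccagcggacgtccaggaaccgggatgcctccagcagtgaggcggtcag
LAMB3: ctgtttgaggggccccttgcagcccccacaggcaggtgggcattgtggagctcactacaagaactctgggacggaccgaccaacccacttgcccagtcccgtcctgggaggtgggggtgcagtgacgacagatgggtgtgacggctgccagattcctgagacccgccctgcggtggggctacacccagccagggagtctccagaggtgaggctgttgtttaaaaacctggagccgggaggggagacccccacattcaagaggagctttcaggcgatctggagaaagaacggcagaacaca
The FLG window held 1 match, whose first base lies 79 bases before the start, the LAMA3 window held 2, and the LAMB3 window shown held 0. Of the 20 promoters of these genes 4 held a match, those of FLG, IVL, LAMA3 and another start of LAMB3. The share was 7.71% of the 35116 promoters in the table, with no chromosome left out. These are matches of letters and not measured sites of binding.

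Among keratins of simple epithelia, the pair KRT8 and KRT18 dominated and did not pass the test. KRT8 was at 217, 209, 253, 240, 252 and 267 CPM in coculture 1 to 6, against 212, 220, 256 and 272 CPM in control 1 to 4. KRT18 was at 281, 292, 430, 370, 369 and 396 CPM in coculture 1 to 6, against 306, 319, 382 and 393 CPM in control 1 to 4. The groups overlapped for both, with log2 fold changes of -0.0033 ± 0.098 and 0.025 ± 0.13 (SE). Of the summed TPM of the 29 keratin genes looked at, KRT18 made up 51.3 ± 7.04% in coculture and 50.8 ± 0.969% in controls, and KRT8 23.6 ± 1.68% in coculture and 23.8 ± 0.428% in controls (SD, n = 6 and 4). The log2 ratio of KRT8 to KRT18 counts within a library was -0.56 ± 0.13 in coculture and -0.54 ± 0.023 in controls. It differed by -0.017, with p = 0.771 in an exact two-sided permutation test over 210 splits and 0.771 adjusted over the 2 ratios tested. The ratio was wider apart among coculture libraries, from -0.76 in coculture 3 to -0.37 in coculture 1, than among controls, from -0.58 to -0.53. The 2 genes lie head to head on chromosome 12 and overlap in the deposited table, where KRT8 ends at 52949866 and KRT18 starts at 52948871 on the other strand. As the strand setting of the counting is not stated, reads of KRT8 and KRT18 cannot be told apart where they overlap. The part of such reads in these levels, shares and ratios was not tested.

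KRT7, a type II keratin of glandular epithelia, was at 11.1 and 9.16 CPM in coculture 1 and 2 and at 3.53, 3.83, 4.25 and 4.57 CPM in coculture 3 to 6, against 3.70, 5.24, 2.98 and 3.64 CPM in control 1 to 4. Only coculture 1 and 2 lay above the controls, and KRT7 was not called (log2 fold change 0.64 ± 0.34, edgeR adjusted p = 0.590). Without them its log2 fold change was 0.044 ± 0.18. KRT19, the smallest type I keratin, was low at 0.966 ± 0.336 CPM in coculture and 0.594 ± 0.279 CPM in controls and was not called.

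Of the basal keratins, KRT15 was expressed in TPC-1 cells without the others of its kind. KRT15, a type I keratin of basal cells, was at 175, 193, 97.9, 114, 114 and 123 CPM in coculture 1 to 6, against 86.4, 87.9, 71.7 and 74.6 CPM in control 1 to 4. Each coculture library lay above each control library, with coculture 1 and 2 highest. The log2 fold change of 0.76 ± 0.18 missed the threshold over all genes (edgeR adjusted p = 0.0791). It passed in 3 of 16 alternatives, namely without coculture 3 (0.0313), without coculture 1 and 2 (0.0150) and with DESeq2 (0.00477). In the other 13 KRT15 was not called, with an adjusted p of up to 0.264 (edgeR without control 3). KRT5, the type II partner of basal cells, had 0 counts, KRT14 had 6 counts in coculture 1 and 0 in the other 9 libraries, and KRT17 had 15 counts over the coculture libraries and 2 over the controls. Coculture 1 is the library with 147 CPM of fibroblast genes, whose part in these 6 counts was not tested.

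KRT81, a type II keratin otherwise known from hair, was the keratin with the third highest level per length in controls, at 115 ± 59.4 TPM in coculture and 163 ± 14.1 TPM in controls. It was at 194, 127, 77.6, 47.5, 82.6 and 70.7 CPM in coculture 1 to 6, against 125, 119, 154 and 146 CPM in control 1 to 4. Coculture 1 lay above all controls, coculture 2 among them and coculture 3 to 6 below all of them, and with all libraries KRT81 was not called (log2 fold change -0.45 ± 0.31, edgeR adjusted p = 0.678). The hair keratin genes are close relatives, and the neighbour KRT86, at 3.62 ± 1.72 CPM in coculture and 4.48 ± 0.748 CPM in controls, overlaps KRT81 on the other strand, so the division of reads among them is uncertain. KRT80, a type II keratin of many epithelia, was at 32.4, 27.1, 27.3, 19.3, 31.6 and 28.6 CPM in coculture 1 to 6, against 28.1, 34.9, 27.3 and 27.1 CPM in control 1 to 4, and was not called.

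**Figure D2:**
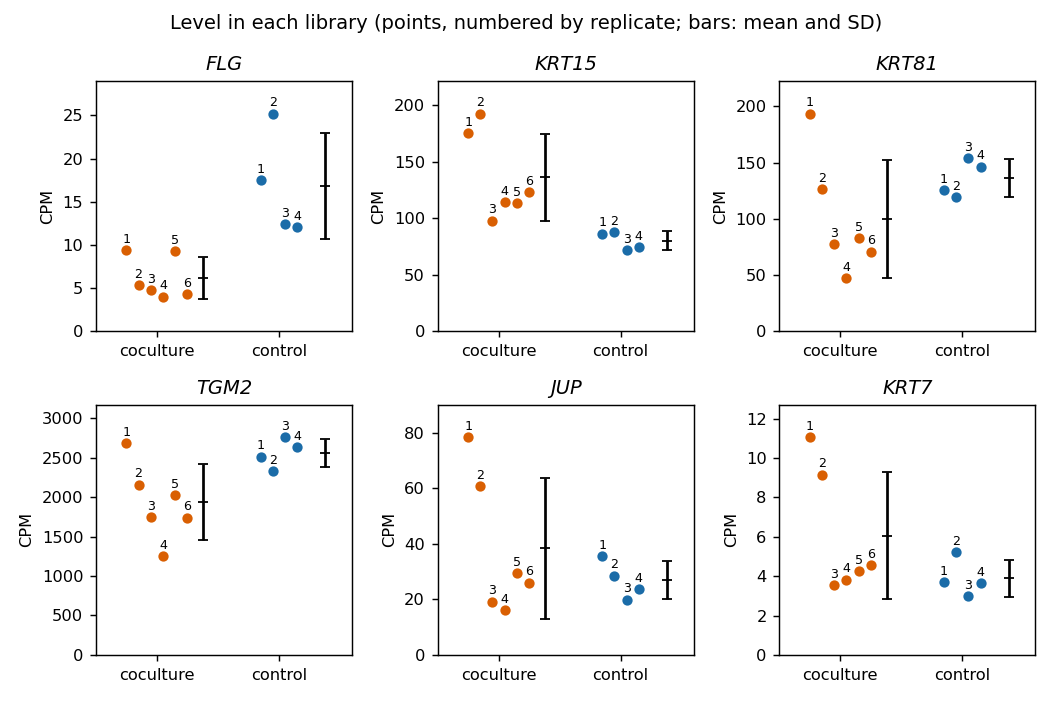
Level (CPM, linear axes from 0) of FLG, KRT15, KRT81, TGM2, JUP and KRT7 in each coculture library (orange, left) and control library (blue, right), with the replicate number over each point and the mean ± SD of each group as a bar. FLG in coculture stays at or under 9.36 CPM and in controls at or over 12.1 CPM, whereas JUP and KRT7 stand high in coculture 1 and 2 alone.

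Among the 34 genes, the desmosomal ones expressed most strongly in TPC-1 cells were DSG2, DSC2, PKP3, PKP4 and JUP, with almost no desmoplakin. Outside the 34, PERP, a membrane protein of desmosomes, was at 116 ± 4.30 CPM in coculture and 115 ± 8.99 CPM in controls and was not called. DSG2, the desmoglein of simple epithelia, was at 130, 126, 129, 141, 138 and 134 CPM in coculture 1 to 6, against 138, 127, 106 and 102 CPM in control 1 to 4. DSC2, its partner desmocollin, was at 5.25, 5.83, 5.15, 4.16, 5.43 and 4.33 CPM in coculture 1 to 6, against 6.86, 5.29, 4.49 and 4.22 CPM in control 1 to 4. In both genes the controls split, with control 1 and 2 above control 3 and 4, and neither gene was called (log2 fold changes 0.17 ± 0.093 and -0.053 ± 0.17). DSC3, a desmocollin of stratified epithelia, had 2 counts in coculture and 0 in controls.

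PKP3, a plakophilin that binds most desmosomal cadherins, was at 33.6, 36.7, 44.0, 43.4, 39.0 and 41.9 CPM in coculture 1 to 6, against 31.0, 36.5, 43.5 and 41.4 CPM in control 1 to 4. PKP4, a relative found at adherens junctions as well, was at 62.4, 58.0, 60.8, 56.9, 55.9 and 53.9 CPM in coculture 1 to 6, against 62.1, 56.8, 60.9 and 60.4 CPM in control 1 to 4. PKP4 had the smallest SE of the 21 genes, with a log2 fold change of -0.050 ± 0.074, and PKP3 was at 0.062 ± 0.11, neither called. PKP2, the plakophilin of simple epithelia and heart, was low at 0.407 ± 0.274 CPM in coculture and 0.437 ± 0.257 CPM in controls. PKP1, the epidermal plakophilin, had 7 counts in coculture, 6 of them in coculture 1, and 1 in controls.

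JUP, which encodes plakoglobin, varied more between coculture libraries than between the groups. It was at 78.3 and 60.9 CPM in coculture 1 and 2 and at 19.2, 16.3, 29.5 and 26.0 CPM in coculture 3 to 6, against 35.5, 28.6, 19.9 and 23.6 CPM in control 1 to 4. Coculture 1 and 2 lay above all controls, and the other 4 overlapped the controls or lay below them. JUP was not called (log2 fold change 0.51 ± 0.41, edgeR adjusted p = 0.729), and without coculture 1 and 2 its log2 fold change had the other sign, at -0.26 ± 0.21. The plakins, which link junctions to filaments, were nearly silent. DSP, which encodes desmoplakin, had 24 counts in coculture, 17 of them in coculture 1, and 10 in controls, 9 of them in control 1. PPL, which encodes periplakin, had 12 counts in coculture and 13 in controls, and EVPL, which encodes envoplakin, had 1 in each group.

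Of the transglutaminases, which cross-link proteins, TGM2 was abundant and TGM1 low. TGM2, the tissue transglutaminase of many cell types including macrophages, was at 2688, 2158, 1744, 1247, 2026 and 1740 CPM in coculture 1 to 6, against 2511, 2328, 2756 and 2634 CPM in control 1 to 4. Coculture 1 lay among the controls and the other 5 coculture libraries below all of them. TGM2 was not called (log2 fold change -0.40 ± 0.16, edgeR adjusted p = 0.432). TGM1, the transglutaminase of the cornified envelope, was at 0.646 ± 0.213 CPM in coculture and 0.932 ± 0.244 CPM in controls, also not called (log2 fold change -0.52 ± 0.29).

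The alpha and beta chains of laminin-332 did not pass the test. LAMA3, the alpha 3 chain, was at 24.8, 25.8, 22.5, 22.4, 27.0 and 23.9 CPM in coculture 1 to 6, against 32.4, 32.5, 22.3 and 20.6 CPM in control 1 to 4. LAMB3, the beta 3 chain, was at 2602, 2787, 1926, 2275, 2028 and 2182 CPM in coculture 1 to 6, against 2258, 1668, 2283 and 2308 CPM in control 1 to 4. Both overlapped between the groups, with log2 fold changes of -0.14 ± 0.14 and 0.11 ± 0.13.

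Per length, LAMA3 was at 5.07 ± 0.370 TPM in coculture and 5.83 ± 1.66 TPM in controls, beside the far higher LAMB3 levels given above. The transcript length used for LAMA3 is that of a long form, and with a shorter form its level per length would be higher. Within libraries, the log2 ratio of LAMB3 to LAMA3 counts was 6.55 ± 0.20 in coculture and 6.32 ± 0.52 in controls. The difference of 0.23 had p = 0.376 in an exact two-sided permutation test over 210 splits, whose smallest possible p is 0.00476, and 0.752 adjusted over the 2 ratios.

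**Figure D3:**
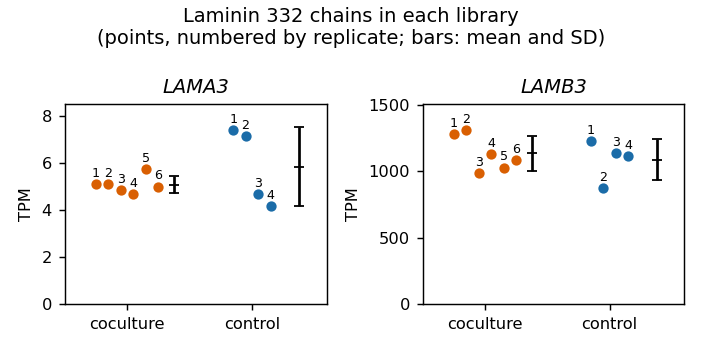
Level per length (TPM, linear axes from 0) of the laminin-332 chains LAMA3 and LAMB3 in each coculture library (orange, left) and control library (blue, right), numbered by replicate, with the mean ± SD of each group as a bar. The groups overlap for both chains, and the axes differ, since LAMA3 averages 5.07 and 5.83 TPM and LAMB3 1137 and 1090 TPM.

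Surface proteins and regulators of the epithelial state were low or silent in both groups. MUC1, a transmembrane mucin, was at 4.75 ± 1.06 CPM in coculture and 4.21 ± 0.374 CPM in controls, and ST14, which encodes the membrane protease matriptase, at 0.915 ± 0.464 CPM in coculture and 0.760 ± 0.330 CPM in controls. EPCAM, an adhesion protein of most carcinomas, had 13 counts in coculture and 20 in controls. ESRP1, an epithelial splicing regulator, had 7 counts in coculture and 5 in controls, and its relative ESRP2 was at 0.318 ± 0.129 CPM in coculture and 0.259 ± 0.172 CPM in controls. GRHL2 and OVOL1, transcription factors that hold cells in the epithelial state, had 0 counts, which in each library allows a level of up to 0.0632 to 0.0758 CPM by counting error. None of the 3 genes tested here, MUC1, ST14 and ESRP2, was called. All 6 mesenchymal genes looked at were tested and 0 were called, with 4 positive and 2 negative log2 fold changes and a median of 0.028, against 0.008 for all genes tested. VIM was at -0.17 and ZEB1, a repressor of epithelial genes, at -0.22, while CDH2 was at 0.015, FN1 at 0.042, SNAI2 at 0.18 and ZEB2 at 0.22.

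Of 79 further genes of the same structures and programme, 30 could be tested, and 2 rose, 0 fell and 28 were not called by edgeR. Over all genes tested, edgeR called 1.14% higher and 0.186% lower. At an unadjusted p under 0.05, 4 of the 30 were higher and 0 lower, where 6.07% and 3.58% of all genes were. DESeq2 called 4 higher and 0 lower, where it called 2.13% and 0.678% of all genes, and limma-voom 1 higher and 0 lower, where it called 0.992% and 0.173%. Both counts of 4 hold SPINT1, with 176 counts over coculture and 17 over the controls. It passed the count filter only through coculture, so its place in these counts was partly fixed beforehand. The median log2 fold change of the 30 genes was 0.138, against 0.008 for all genes, with 20 positive and 10 negative. Without coculture 1 and 2 this median was -0.023 over the 28 then tested, against -0.013 for all genes, with 13 positive and 15 negative. Among the risen genes was ELF3, an ETS factor of epithelia, which was at 10.5 ± 9.98 CPM in coculture and 0.625 ± 0.350 CPM in controls and was highest in coculture 1 and 2, at 27.4 and 18.1 CPM. Its log2 fold change was 4.07 ± 0.76 (edgeR adjusted p = 0.0174), and 2.81 without coculture 1 and 2, where it was also called. It was not called without control 1, 3 or 4, with no filter or by limma-voom, and over all alternatives its adjusted p ran from 3.09e-06 to 0.164. All 6 hemidesmosome genes were tested and 0 were called, among them COL17A1, a transmembrane collagen, at 79.7 ± 13.5 CPM in coculture and 74.98 ± 2.95 CPM in controls. ITGA6, the alpha 6 integrin of hemidesmosomes, was at 131 ± 18.2 CPM in coculture and 129 ± 11.8 CPM in controls, and its partner ITGB4 at 0.267 ± 0.312 CPM in coculture and 0.175 ± 0.106 CPM in controls. Of the 23 further genes of the cornified envelope 19 were too low to test and 8 had 0 counts throughout. CDH1, which encodes E-cadherin, had 5 counts in coculture and 0 in controls.

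Without coculture 1 and 2, 1 of the 21 genes was called higher and 3 were called lower by edgeR, where 1.37% and 0.732% of the 15309 genes tested were called. KRT15 was higher with a log2 fold change of 0.47 ± 0.091 (edgeR adjusted p = 0.0150). FLG was lower at -1.60 ± 0.32 (edgeR adjusted p = 0.0323), KRT81 at -0.98 ± 0.15 (0.00560) and TGM2 at -0.61 ± 0.12 (0.0181). These 4 of the 21 genes were also those whose groups then did not overlap, where 8.55% of all genes tested in that fit had groups without overlap. The median log2 fold change of the 21 genes was -0.031, against -0.013 for all genes tested in that fit. Coculture 1 and 2 were picked out from these same data, so the p-values of that fit are post hoc. For KRT81 and TGM2 it was the only 1 of 16 alternatives that passed.

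**Figure D4:**
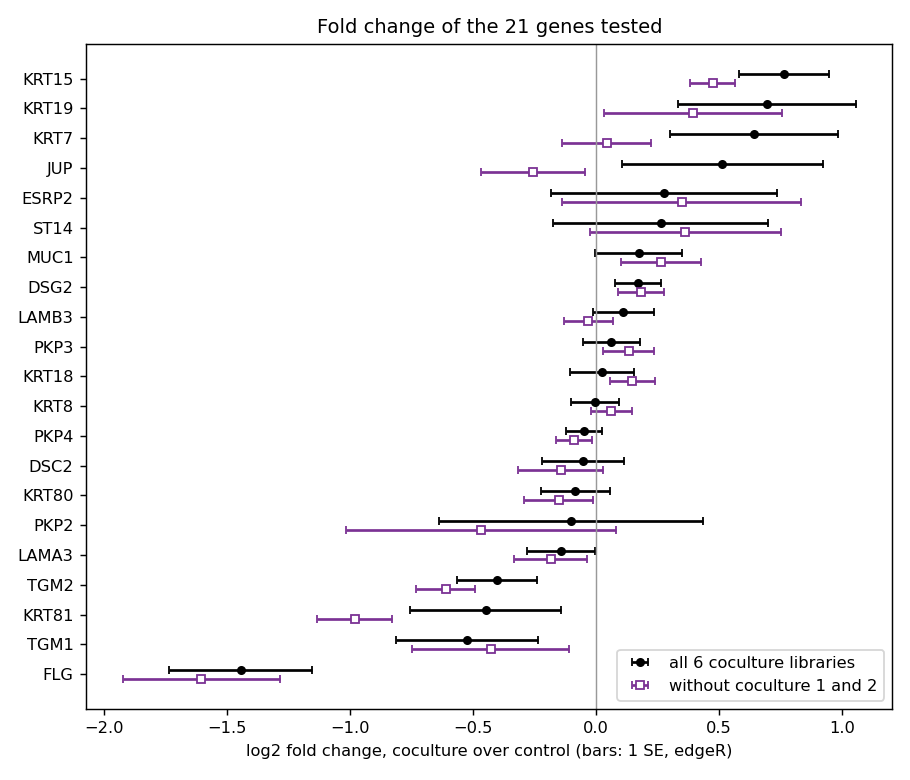
Log2 fold change (coculture over control, with 1 SE from edgeR) of the 21 tested genes, with all 6 coculture libraries (filled circles) and without coculture 1 and 2 (open squares). FLG lies at -1.45 and -1.60, KRT81 moves to -0.98 from -0.45 when the 2 libraries are left out, and JUP changes sign.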

How the data were processed

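The authors deposited raw read counts per gene symbol, whole numbers whose totals differ between libraries, with a transcript length per gene. The submitters' processing notes name the aligners HISAT2 (2.0.4) and BWA and the genome build GRCh38.p10 without assigning steps to them. Counting tool, annotation and strand setting were not found in these sources. The number of value columns left unused in the gene table was 0, and the table of mature miRNAs was not used.

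The test was edgeR 4.0.16 in R 4.3.3 (TMM, filterByExpr by group, robust glmQLFit and glmQLFTest) over 15629 genes for coculture minus control, with Benjamini-Hochberg adjustment at 0.05. The SE is the size of the log2 fold change divided by the square root of F. TPM was computed from the counts and the deposited lengths. Ratios used a pseudocount of 0.5. Alternatives were DESeq2 1.42.0 (size factors, and the Wald test), limma-voom (limma 3.58.1), no filter, a replicate block and leaving out libraries. The floor covers counting error only, whereas the SE and SD also hold the spread between libraries. The test was checked on simulated data, but the outcome is not given here and no result above rests on it. The closest pair of libraries, control 3 and 4, had a chi-square of 6.86 per degree of freedom, so every library was counted. Values are given for all 34 genes, per library where the mean reached 5 CPM, for further genes that passed the threshold and for CDH1, with 1 such gene and 1 thyroid marker not reported here. FLG-AS1, KRT86, IVL, FLG2, HRNR, LOR, SBSN, SPINT1, SCEL, CNFN, TGM5, KRT10, PERP, COL17A1, ITGA6, ITGB4, CD53, TYROBP, LCP1, ITGB2 and the mesenchymal genes were named after their values were seen. The members, lists, tests and alternatives were chosen with earlier results of these data known.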

Additional observations from a re-analysis of the deposited data

Results flagged for a closer look

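In 50 groups of values checked for a library far from the others, 3 were found, where chance gives about 5%. Control 2 was highest for KRT80 at 34.9 CPM and lowest for LAMB3 at 1668 CPM, with the other 3 controls close together in both. Coculture 6 was highest for TGM1 at 1.06 CPM. In a gene too low to test, KRT14 had 6 counts in coculture 1 and 0 in all controls.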

How the results depend on the processing

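Genes called lower among the 34 numbered 1 in the reported fit, 0 with no filter, 3 without coculture 1 and 2 and 0 to 1 on leaving out 1 library. Genes called higher numbered 0, 1 with DESeq2, 1 without coculture 1 and 2 and 0 to 1 on leaving out 1 library. Further epithelial genes called higher numbered 2, 1 with no filter, 4 with DESeq2, 1 with limma-voom and 0 to 3 on leaving out 1 library. Over all genes, 178 higher and 29 lower became 333 and 106 with DESeq2, 210 and 112 without coculture 1 and 2, 100 and 10 under the replicate block, and 112 to 204 and 4 to 36 on leaving out 1 library.

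Some signs changed: without coculture 1 and 2, JUP was at -0.26, against 0.51 with all libraries, KRT8 at 0.062 and LAMB3 at -0.031, and on leaving out 1 library KRT8 ran from -0.062 to 0.061, KRT18 from -0.039 to 0.085, KRT80 from -0.13 to 0.0080, PKP2 from -0.40 to 0.30, PKP3 from -0.029 to 0.13, DSC2 from -0.14 to 0.10 and the KRT8 to KRT18 log2 ratio from -0.056 to 0.023. The causes were not tested. With DESeq2 size factors the calls among the 34 genes were those of the reported fit, and the median of all genes moved by -0.0051.

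Libraries share numbers 1 to 4 between groups, but their deviations correlated at 0.35, -0.083, 0.20 and 0.14 and 2 of 4 coculture libraries correlated best with their own number, so no pairing was assumed. With the replicate block, 1 of the 34 genes was lower and 0 higher, FLG at -1.53 (adjusted p = 0.0454), KRT18 was at -0.043, ST14 at -0.14, and the ratios differed by -0.018 (KRT8 to KRT18) and 0.32 (LAMB3 to LAMA3).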
